A study of Mus musculus with 225 samples.

Results

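*Shox2*, *Meox1* and *Meox2* are 3 homeobox genes, found by symbol among the 23165 genes counted in single cells of the mouse forelimb. *Shox2* and *Meox2* also had a row among the 10948 genes of the normalized table, whereas *Meox1* had none there and was described from its reads. All cells came from E12.5 forelimbs of mice of a mixed C57Bl6CBAF1 background, heterozygous for *Hoxd11::GFP*, a tau-GFP sequence knocked into *Hoxd11* that inactivates that copy of the gene, so every cell carried the same allele and no cell was a wild-type control. Forelimbs of littermate embryos were micro-dissected into autopod (the future hand) and zeugopod (the future forearm) and pooled, the cells brightest for GFP were sorted and captured on a C1 chip, and polyA RNA was amplified with the SMARTer kit. The cells therefore represent the brightest of the cells of each tissue in which *Hoxd11* had been transcribed, and not all such cells. The quality filter of the study kept 58 zeugopod cells from run NXT0142 and 65 from run NXT0143, and 76 autopod cells, 59 from run NXT0072 and 17 from run NXT0143. No label ties a cell to an embryo, so each tissue counts as 1 pooled sample, and cells were described without p-values.

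*Shox2* encodes a short-stature homeobox transcription factor known for its role in the proximal limb, where its loss shortens the skeleton. *Meox2* and *Meox1* encode closely related mesenchyme homeobox factors, known from somites, and *Meox2* also from limb mesenchyme, where it is required for normal limb muscle. In the forming limb, mesenchyme cells either condense and become cartilage under *Sox9*, *Sox5* and *Sox6*, or give rise to tendon, ligament and other connective tissue. Whether zeugopod cells held *Shox2* and *Meox2* together or apart, and how this lay beside cartilage genes, was the question addressed.

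The cells were deeply sequenced, with a median of 3233736 reads on genes per zeugopod cell (186271 to 6801278) and of 2830024.5 per autopod cell (187344 to 9437447). Run NXT0142 was deeper than NXT0143, with medians of 4048526 and 2659813 reads in zeugopod cells, and tissue and run overlapped only in NXT0143. A gene is called detected in a cell at 5 or more reads. No zeugopod cell had 3 detected markers of muscle, muscle precursors, epithelium, endothelium or blood, or 2 of macrophages, although only 1 of the 4 blood genes was among the symbols counted. *Myod1* and *Myog*, which define muscle cells, were detected in 0 cells of either tissue.

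*Shox2* (ENSMUSG00000027833) lies on the minus strand of GRCm38 at chr3:66971727-66981771, *Meox2* (ENSMUSG00000036144) on the plus strand at chr12:37108540-37179534 and *Meox1* (ENSMUSG00000001493) on the minus strand at chr11:101877510-101894374. Exons of *Shox2* share 153 bases (4.62% of its exon bases) with *Rsrc1* on the other strand, and the libraries do not mark strand. *Rsrc1* was detected in 22 of the 40 zeugopod cells with no *Shox2* read, in 43 of the 73 with 5 or more, and in 24 of 76 autopod cells, and its part in the reads of *Shox2* was not tested. *Meox1* and *Meox2* share no stretch longer than 12 bases in their transcripts, so no read of 75 bases matches both. The 250 bases before the RefSeq start of *Shox2* and of *Meox2* (GRCm38.p6, 5′ to 3′ on the strand of the gene) are shown because both genes were absent from most autopod cells and mixed among zeugopod cells, and the capitals mark TATAAA, the TATA box letters, or the same letters on the other strand (TTTATA).
Shox2, chr3:66981772-66982021, minus strand: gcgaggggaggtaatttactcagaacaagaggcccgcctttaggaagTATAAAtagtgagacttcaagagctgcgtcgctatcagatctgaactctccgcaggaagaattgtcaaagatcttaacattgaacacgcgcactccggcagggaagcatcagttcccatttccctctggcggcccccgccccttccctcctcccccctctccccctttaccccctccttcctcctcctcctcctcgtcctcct
Meox2, chr12:37108290-37108539, plus strand: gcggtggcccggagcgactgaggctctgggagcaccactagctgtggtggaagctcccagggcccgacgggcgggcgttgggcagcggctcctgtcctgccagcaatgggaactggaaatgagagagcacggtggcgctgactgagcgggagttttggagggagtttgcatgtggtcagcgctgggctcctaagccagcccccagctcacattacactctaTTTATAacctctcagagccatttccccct

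Each window held 1 match, which began 29 bases before the start of *Meox2* and 203 bases before that of *Shox2*. On either strand, the 6 letters occur in 12.4% of the 32851 promoter windows of the same length. The homeodomain core TAATTA was in neither window and in 4.84% of all, and GGGCGG was present once in each and in 32.7% of all. The table of promoters has no entry for *Meox1*.

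*Shox2* was detected in 73 of the retained zeugopod cells (59.3%, exact binomial 95% interval 50.1 to 68.1%) and *Meox2* in 67 (54.5%, 45.2 to 63.5%). These intervals, like all others here, cover counting error only. By run, *Shox2* was detected in 31 of 58 cells of NXT0142 (53.4%, 39.9 to 66.7%) and in 42 of 65 cells of NXT0143 (64.6%, 51.8 to 76.1%). *Meox2* was detected in 31 cells of NXT0142 (53.4%) and 36 of NXT0143 (55.4%, 42.5 to 67.7%). The intervals of the runs overlapped for both genes. The shares depended on the criterion for the weakest cells, since 10 further zeugopod cells had 1 to 4 reads of *Shox2* and 18 had 1 to 4 reads of *Meox2*.

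The range of levels within the detected cells was over 1000-fold. Among the 73 cells with *Shox2*, CPM (reads of the gene per 1000000 reads on genes) had a lowest value of 1.54, a median of 469.9 and a highest value of 3481.5. Among the 67 cells with *Meox2*, CPM ranged from 1.03 over a median of 442.4 to 3093.2. Of the cells with *Shox2*, 46 had 100 CPM or more, 15 had 10 to 100 and 12 had less than 10. The corresponding counts for *Meox2* were 46, 5 and 16. Few cells with *Meox2* thus lay between low and high levels, whereas *Shox2* was more evenly spread. In NXT0142, 9 cells had 10 to 100 CPM of *Shox2* and 4 had less than 10. The median CPM of *Shox2* in detected cells was 182.1 in NXT0142 and 638.6 in NXT0143, and that of *Meox2* was 372.9 and 495.4. Per length of transcript, in the normalized reads per kb of the authors, the median was 473.3 for *Shox2* and 603.2 for *Meox2* in the cells that held them.

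**Figure D1:**
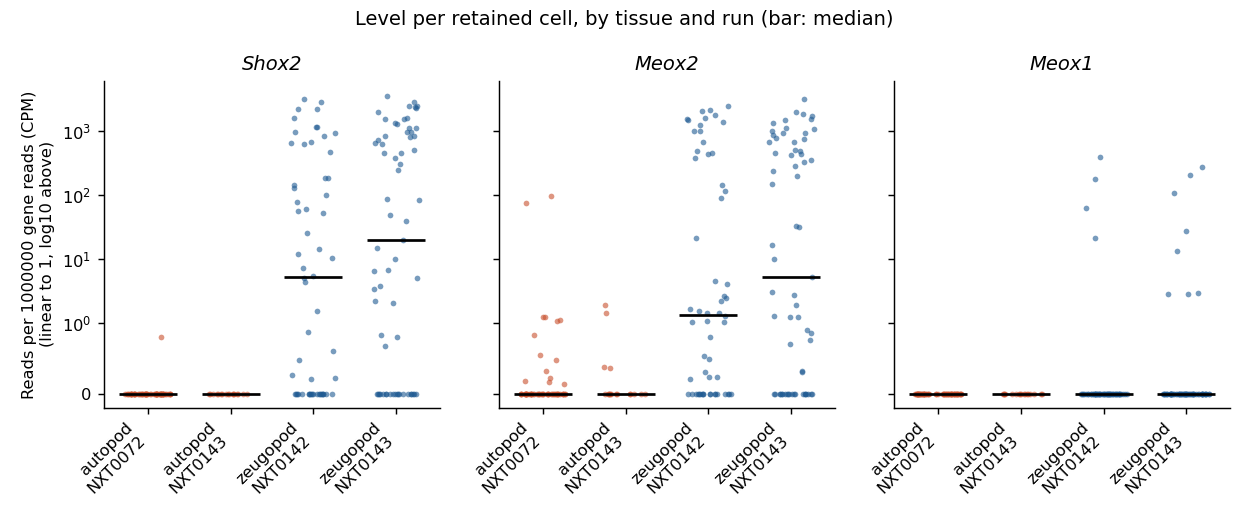
Reads per 1000000 gene reads (CPM, vertical axis, linear up to 1 and log10 above) of *Shox2*, *Meox2* and *Meox1* in each retained cell, by tissue and run. Each point is a cell and each bar a median. Zeugopod cells spread from 0 to over 1000 CPM for *Shox2* and *Meox2*, *Meox1* is at 0 in all but 12 zeugopod cells, and the highest autopod cell for *Meox2* stands at 95.4 CPM.

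In the autopod, *Shox2* was detected in 0 of 76 cells, which at 3 cells of the total limits the share to 3.95% (exact upper bound 4.74%), and a single cell had any read of it, with 4 reads. *Meox1* had 0 reads in all 76 autopod cells. *Meox2* was detected in 5 of 76 autopod cells (6.58%, 2.17 to 14.7%), all from run NXT0072, at 5, 5, 10, 147 and 481 reads. The 2 highest of these cells had 95.4 and 72.9 CPM and 2305 and 5114 reads of *Hoxd13*, the gene that marks the digit territory, so their *Hoxd13* did not go against the autopod label. In the 17 autopod cells of NXT0143, *Meox2* never exceeded 4 reads, so that 0 of 17 cells limits the share to 17.6% by the same count of 3 cells (exact upper bound 19.5%).

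As the difference of mean log2(normalized value + 1), zeugopod minus autopod, *Shox2* gave 4.29 and *Meox2* 3.60, which placed them 5th and 10th from the top of 4898 genes. These genes had passed a detection filter set at 25%. With *Shox2* detected in 0 and *Meox2* in 5 of the 76 autopod cells, both passed it through zeugopod cells, where they are high. Their ranks and the call that follows are partly set by that entry and are a description only. A difference of 1 or more, with the same sign within NXT0143 and between the other runs, was met by 9.0% of these genes, and both members met it. Within NXT0143, the run that holds both tissues, the differences were 4.66 for *Shox2* and 4.09 for *Meox2*, beside a median of −0.18 over all genes. For *Meox1* the difference was 0.52 on the scale of log2(CPM + 1), and 0.57 within NXT0143. In pooled tissue, fewer cells with a gene and less RNA per cell cannot be told apart, but here the counts of cells and the levels within them are given separately.

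*Shox2* and *Meox2* were found together in 44 of the zeugopod cells (35.8%, 27.3 to 44.9%), *Shox2* alone in 29 (23.6%), *Meox2* alone in 23 (18.7%) and neither in 27 (21.95%). The product of the 2 shares gives 39.8 cells with both, so that the observed number was 1.11 times the expected one, with an interval of 0.846 to 1.39 that includes 1. *Meox2* was detected in 60.3% of the cells with *Shox2* and in 23 of the 50 cells without it, a difference of 14.3 percentage points with an interval of −4.77 to 32.4. The difference varied with the setting, at 17.2 points with 1 or more reads and 24.6 with 10 or more reads. It was 27.6 where detection meant normalized values from 5 up, and 18.6 at 10 CPM or more. In cells thinned to 500000 reads it was 21.8 with 5 or more and 26.9 with 1 or more reads. In cells with at least 1000000 reads it was smaller, at 11.7. The ratio was at most 1.30 in these settings. The interval given for the ratio belongs to detection at 5 or more reads and holds the expected number fixed. It therefore does not show whether the ratio departs from 1 in the other settings. All of these settings pool both runs.

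The runs differed in this respect. In NXT0142, 16 cells had both genes, 15 *Shox2* alone, 15 *Meox2* alone and 12 neither, against 16.6 cells with both by the product (ratio 0.966, 0.583 to 1.43). In NXT0143, 28 cells had both, 14 *Shox2* alone, 8 *Meox2* alone and 15 neither, against 23.3 by the product (ratio 1.20, 0.862 to 1.56). Both intervals include 1, but they hold the expected number fixed and so cannot decide whether the genes go together within a run. *Meox2* was detected in 51.6% of cells with *Shox2* and 55.6% of those without it in NXT0142. In NXT0143 these shares were 66.7% and 34.8%, a difference of 31.9 points, given here without an interval. The Spearman rank correlation of the normalized values over cells was 0.30 in all zeugopod cells, 0.12 in the 58 cells of NXT0142 and 0.47 in the 65 of NXT0143. It was 0.24 given the number of genes detected per cell, which the genes of a cell share. Without that adjustment, the correlation of *Shox2* with the 5335 other genes ranked had a median of 0.08 and a 5th percentile of −0.11. The 95th percentile was 0.26, below the 0.30 of *Meox2* over all zeugopod cells. Given the number of genes detected, the median was 0.02. In sparse counts, coefficients of this size are a description and no finding.

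The median level of each gene was higher in cells with both genes than in cells with only that gene. In the 44 cells with both, *Shox2* ranged from 1.54 over a median of 647.8 to 3481.5 CPM, and in the 29 *Shox2*-only cells from 2.04 over 182.1 to 3104.6. The ranges overlapped almost fully, and the order of the medians was the same in NXT0142 (560.1 and 98.6) and in NXT0143 (687.5 and 543.5). *Meox2* had a median of 495.4 CPM in the cells with both and of 231.2 in the 23 *Meox2*-only cells. Its medians were 441.7 and 88.1 in NXT0142 and 701.7 and 382.7 in NXT0143. Of the *Meox2*-only cells, 9 of 23 had less than 10 CPM of *Meox2*, and of the cells with both, 7 of 44. Median genes detected per cell were 4110 with both, 3802 with *Shox2* only, 4254 with *Meox2* only and 3745 with neither, and the part of cell depth in these classes was not tested beyond the thinned values given in the closing section. Within the cells with both, neither gene prevailed per kb: *Shox2* was higher in 22 cells and *Meox2* in 22, and the levels differed 10-fold or more in 17.

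**Figure D2:**
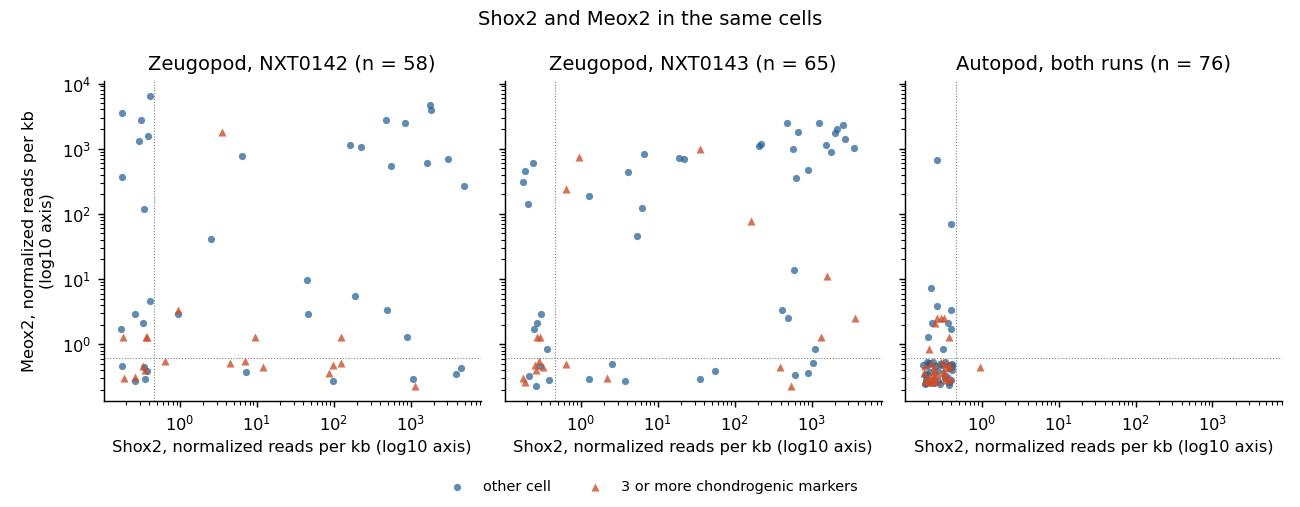
Normalized reads per kb of *Shox2* (horizontal, log10) and *Meox2* (vertical, log10) in each retained cell, in zeugopod cells of NXT0142 and of NXT0143 and in autopod cells. Triangles are cells with 3 or more chondrogenic markers. Cells at the floor of the table were spread at random to the left of or below the dotted lines. Of the 44 zeugopod cells with both genes, 3 are triangles.

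In cells with cartilage genes, *Meox2* was detected less often, with an interval of the difference below 0 in each run, and *Shox2* too had a lower share, with an interval that included 0 in NXT0142. The difference between the runs was not tested. Cells with at least 3 of the 5 markers *Sox9*, *Col2a1*, *Acan*, *Col9a1* and *Matn1* at 5 or more reads are called chondrogenic here, 38 zeugopod cells (19 in each run) beside 85 others. *Meox2* was detected in 8 of the 38 chondrogenic cells (21.1%, 9.55 to 37.3%) and in 59 of the 85 other cells (69.4%, 58.5 to 78.95%), a difference of −48.4 percentage points (−63.3 to −28.8). The shares were 15.8% and 71.8% in NXT0142 and 26.3% and 67.4% in NXT0143, differences of −56.0 and −41.1 points, and the intervals of chondrogenic and other cells did not overlap within either run.

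*Shox2* was detected in 17 of the 38 chondrogenic cells (44.7%, 28.6 to 61.7%) and in 56 of the 85 others (65.9%, 54.8 to 75.8%), a difference of −21.1 points (−40.1 to −0.881). In NXT0142 the shares were 47.4% and 56.4%, a difference of −9.04 points whose interval (−36.9 to 20.1) includes 0. In NXT0143 they were 42.1% and 73.9%, a difference of −31.8 points (−56.7 to −3.15). At 1 or more reads the difference for *Shox2* was −2.45 points and at 10 or more reads −20.2, so it depended on how cells with 1 to 4 reads were counted. The level differed as well, since the median CPM of *Shox2* in detected cells was 98.6 in chondrogenic and 647.8 in other cells, with 60.8 and 635.0 in NXT0142 and 379.3 and 687.5 in NXT0143.

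These differences were set beside all genes. Of 5333 genes with 5 or more reads in at least 20% of zeugopod cells, the markers of the call left out, 5.25% were detected in a share at least 20 points lower in chondrogenic cells with the same sign in both runs, and both *Shox2* and *Meox2* were among them. The median of all these genes was −3.37 points. *Meox2* had the lowest difference of the 5333, and 240 genes (4.50%) were at or below *Shox2*. Among the 484 genes detected in a share of zeugopod cells within 5 points of that of *Shox2*, 35 were at or below it, and its −21.1 points lay between their 5th and 95th percentiles (−23.7 and 14.3). Of the 578 such genes for *Meox2*, *Meox2* was again the lowest, beside percentiles of −22.0 and 15.0. Median genes detected were 3869.5 in chondrogenic and 4051 in other cells and median reads 3243823.5 and 3137267, and the part of depth in these differences was not tested beyond the thinned cells, where they were −44.1 points for *Meox2* and −16.8 for *Shox2*.

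**Figure D3:**
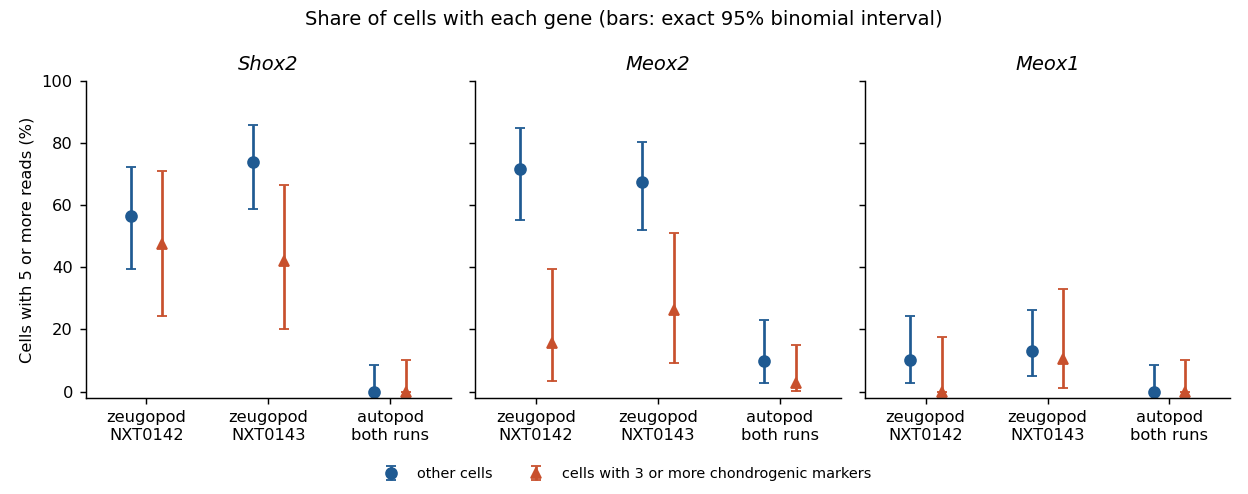
Share of cells (%) with 5 or more reads of *Shox2*, *Meox2* and *Meox1* in chondrogenic cells (triangles) and other cells (circles), for zeugopod cells by run and for all autopod cells. Bars are exact 95% binomial intervals. For *Meox2* the intervals are apart in both zeugopod runs, with 15.8% against 71.8% and 26.3% against 67.4%, and for *Shox2* and *Meox1* they overlap.

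By the number of chondrogenic markers detected, *Meox2* was found in 3 of 5 cells with 0 markers, 33 of 42 with 1, 23 of 38 with 2, 8 of 26 with 3 and 0 of the 12 cells with 4 or 5. With 1 and 2 markers it was found in 14 of 20 and 12 of 17 cells of NXT0142, and in 19 of 22 and 11 of 21 of NXT0143. *Shox2* was detected in 3, 31, 22 and 12 of the same cells with 0, 1, 2 and 3 markers. It was detected in 5 of the 12 cells with 4 or 5 markers (41.7%), 2 of the 8 with 4 and 3 of the 4 with all 5. The cells with the full set of markers thus held *Shox2* in 3 of 4 and *Meox2* in 0 of 4, and all 4 came from NXT0143. Of the 3 with *Shox2*, 1 had 5 reads of it, the fewest that count as detected.

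Chondrogenic cells made up different shares of the 4 classes of zeugopod cells. They were 3 of 44 cells with both genes (6.82%, 1.43 to 18.7%), 5 of 23 *Meox2*-only cells (21.7%, 7.46 to 43.7%), 14 of 29 *Shox2*-only cells (48.3%, 29.4 to 67.5%) and 16 of 27 cells with neither (59.3%, 38.8 to 77.6%). In NXT0142 they were 0 of 16 cells with both genes, 3 of 15 *Meox2*-only, 9 of 15 *Shox2*-only and 7 of 12 with neither. In NXT0143 they were 3 of 28, 2 of 8, 5 of 14 and 9 of 15, so both classes with *Meox2* lay below both classes without it in each run. Leaving the chondrogenic cells out, 41 of the 85 remaining cells had both genes against 38.9 by the product (ratio 1.05, 0.815 to 1.30). Among the 38 chondrogenic cells, 3 had both against 3.58. In the autopod, *Meox2* was detected in 1 of 35 chondrogenic cells (2.86%, 0.0723 to 14.9%) and in 4 of 41 others (9.76%, 2.72 to 23.1%), with intervals that overlap.

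By gene, *Col9a1*, which encodes a chain of the cartilage collagen IX, was detected in 8.96% of cells with *Meox2* and 53.6% of cells without it, and in 21.9% of cells with *Shox2* and 20 of the 50 cells without it. *Sox9*, the master regulator of cartilage, was detected in 50.7% of cells with *Meox2* and 80.4% without, and in 57.5% with *Shox2* and 37 of 50 without. *Col2a1*, which encodes the main collagen of cartilage, was detected in 91.1% of all zeugopod cells and therefore separated little, with 88.1% and 94.6% for *Meox2*. *Acan*, which encodes aggrecan, was detected in 4 of 67 cells with *Meox2* and 13 of 56 without. *Matn1*, which encodes a cartilage matrilin, was detected in 4 cells, 3 of them with *Shox2* and 0 with *Meox2*.

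Of the 8 cartilage genes that had no part in the call, 3 had shares in the order of both genes, *Meox2* only, *Shox2* only and neither. *Sox5*, a partner of *Sox9*, was detected in 13.6% of cells with both genes, 30.4% of *Meox2*-only cells, 58.6% of *Shox2*-only cells and 70.4% of cells with neither. *Sox6*, its close relative, gave 11.4%, 21.7%, 48.3% and 62.96% in the same order, and *Col9a2*, another chain of collagen IX, 20.5%, 30.4%, 58.6% and 81.5%. *Col11a1*, a chain of collagen XI, went with the absence of *Shox2* instead, with 59.1% and 55.2% in the classes with *Shox2* and 86.96% and 92.6% in those without. *Fgfr3*, a receptor of growing cartilage, lay between 18.5% and 24.1% in all 4 classes. Over all zeugopod cells, the rank correlation with *Meox2* was −0.54 for *Sox5* (−0.55 in NXT0142 and −0.54 in NXT0143), −0.45 for *Sox6* and −0.43 for *Col9a1*. With *Shox2* it was −0.29 for *Sox5*, −0.26 for *Sox6* and −0.18 for *Col9a1*.

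**Figure D4:**
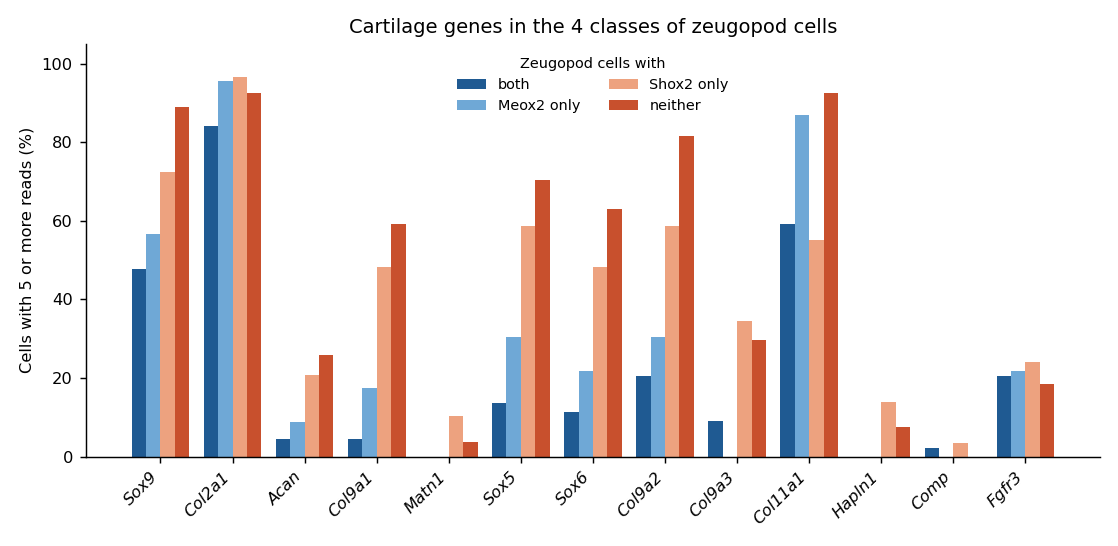
Share of zeugopod cells (%) with 5 or more reads of each of 13 cartilage genes, in the 44 cells with both *Shox2* and *Meox2*, the 23 *Meox2*-only cells, the 29 *Shox2*-only cells and the 27 cells with neither. *Sox5* climbs from 13.6% over 30.4% and 58.6% to 70.4%, and *Col11a1* stands at 86.96% and 92.6% in the classes without *Shox2*.

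Next, the 29 *Shox2*-only and the 23 *Meox2*-only cells were compared over the 5334 genes that passed the filter, leaving out the 2 genes that define the classes. Differences are of mean log2(normalized value + 1), and a gene is called at a difference of 1 or more with the same sign in both runs. The classes held 15 and 15 cells in NXT0142 and 14 and 8 in NXT0143. *Shox2*-only cells were higher in 6.56% of genes and lower in 11.7%. Of the chondrogenic markers, 3 of the 3 that passed the filter were called higher in *Shox2*-only cells: *Col9a1* by 2.94, *Sox9* by 1.96 and *Col2a1* by 1.13. Of the 8 further cartilage genes 5 passed, and 3 of these were called higher, *Sox5* by 2.24, *Col9a2* by 1.74 and *Sox6* by 1.17, whereas *Col11a1* gave −0.32 and turned sign between the runs. The medians of the 2 lists were 1.96 and 1.17, beside −0.13 over all genes.

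Of 10 connective tissue genes, all of which passed the filter, 2 were called higher in *Shox2*-only cells and 2 lower. *Lum*, which encodes the matrix proteoglycan lumican, was higher by 2.42 and *Osr1*, a zinc finger factor of connective tissue precursors, by 1.40, while *Pdgfra*, a receptor of mesenchyme cells, gave −1.90 and *Col1a2*, a chain of collagen I, gave −1.44. Among 8 tested genes of the proximal limb, *Tbx15*, a T-box factor, was higher by 2.55 and *Hoxa10* by 1.12, with none lower. *Prrx1*, a homeobox factor of limb mesenchyme, was higher by 3.02 and was detected in 89.7% of *Shox2*-only and 56.5% of *Meox2*-only cells, with differences of 1.78 and 5.33 in the runs. Of the distal genes *Lhx9* gave −1.33, and *Wnt5a* gave 0.11. Of the tendon genes tested, *Scx* gave −0.70 and *Tnc* 0.23, with opposite signs in the runs for both, and no cell cycle gene was called.

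**Figure D5:**
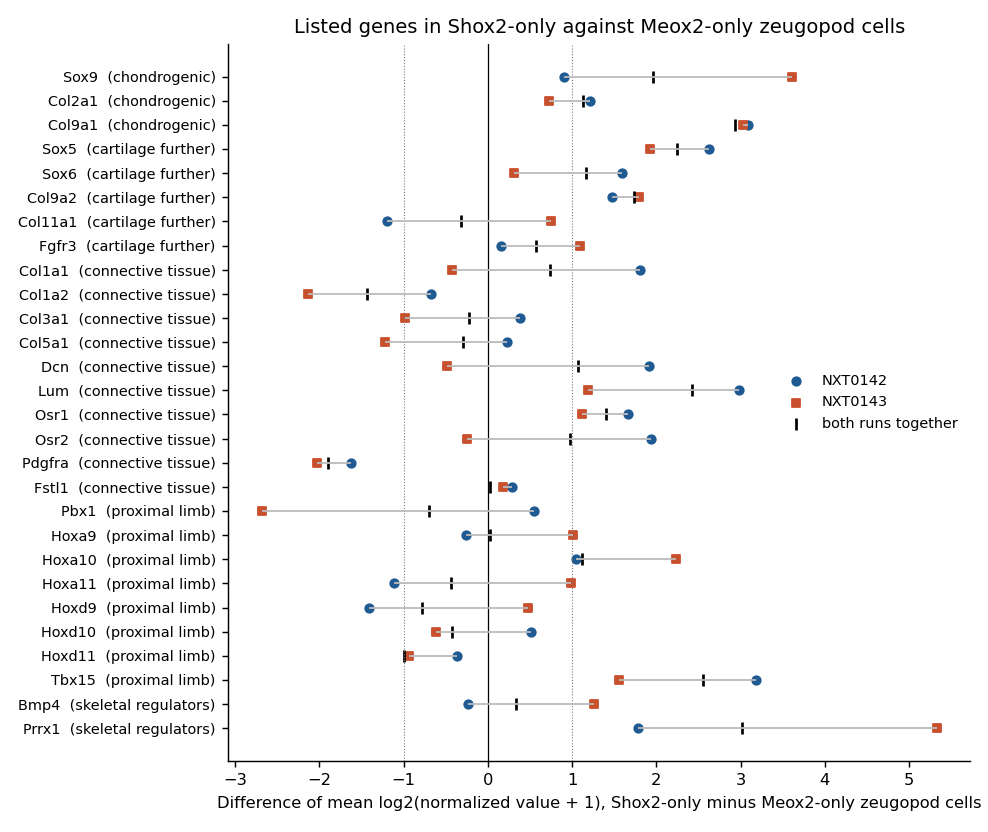
Difference of mean log2(normalized value + 1) between *Shox2*-only and *Meox2*-only zeugopod cells for the listed genes that passed the filter, in NXT0142 (circles), in NXT0143 (squares) and in both runs together (ticks). Dotted lines mark differences of 1 and −1. *Col9a1* lies at 3.09 and 3.03 in the runs, and most proximal limb genes lie on opposite sides of 0.

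Ranked by the smaller difference of the runs, the genes highest in *Shox2*-only cells were *Col9a1* (3.09 and 3.03 in NXT0142 and NXT0143), *Nemf*, *Nfkbia*, which encodes an inhibitor of NF-kappaB, *Plec*, which encodes plectin, and *Nme4*, with differences over all cells between 2.48 and 2.94. Those highest in *Meox2*-only cells were *Ebf2*, *Hoxd8*, *Inafm2*, *Dazap2* and *Nbl1*. *Hoxd8*, a *Hoxd* gene expressed proximally, was detected in 78.3% of *Meox2*-only and 70.5% of cells with both, against 20.7% of *Shox2*-only cells and 48.1% of cells with neither, and its difference was −4.69 and −2.97 in the runs. *Ebf2*, a transcription factor gene, was detected in 78.3% of *Meox2*-only cells and 27.3% of cells with both, and in 48.3% of *Shox2*-only cells and 59.3% of cells with neither. *Nbl1*, which encodes a secreted BMP antagonist, was detected in 54.5% of cells with both and 47.8% of *Meox2*-only cells, but in 6.90% of *Shox2*-only cells and 7.41% of cells with neither.

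Cells with both genes and cells with neither stood farther apart. Of the 5334 genes, 26.4% were higher and 3.0% lower in the 44 cells with both (22.9% and 5.79% on the scale of log2(CPM + 1)), and the median difference over all genes was 0.51. The cells with neither were also shallower, with a median of 2478774 reads on genes and 3745 genes detected. In cells with both, these medians were 3226754.5 and 4110. The part of depth in the excess of higher genes was not tested. The filter was set over all zeugopod cells, so a gene detected mainly in the 44 cells passed it more easily than one detected mainly in the 27 with neither. With no filter on low values, 14.8% of genes were higher and 2.06% lower. The 3 chondrogenic markers tested were all lower, with *Sox9* at −5.18, *Col9a1* at −3.88 and *Col2a1* at −2.70, and 4 of 5 further cartilage genes were lower, with *Col9a2* at −4.88 and *Sox6* at −3.31. Conversely, 9 of 10 connective tissue genes were higher, at a list median of 2.48: *Col3a1*, the chain of collagen III, by 5.66, *Lum* by 5.39, *Osr1* by 4.78 and *Dcn*, which encodes decorin, by 4.49. *Dcn* was detected in 54.5% of cells with both and 3.70% of cells with neither. The exception, *Osr2*, gave −0.38 with opposite signs in the runs. *Bmp4*, a ligand of the BMP pathway, was higher by 2.82. Of the 8 tested genes of the proximal limb, *Hoxd10* and *Hoxd11* were lower, at −1.31 and −1.06. *Tbx15* was higher by 1.17, and the others were not called.

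The genes whose levels over zeugopod cells were most like *Shox2* (the smaller of the Spearman coefficients in the runs, over 58 and 65 cells) were *Lum* (0.55 and 0.63), *Dkk2*, which encodes a secreted modulator of Wnt signalling (0.53 and 0.59), *Osr1* (0.52 and 0.53), *Tmem132c* (0.50 and 0.58) and *Tbx3*, a T-box factor (0.51 and 0.49). *Meox2* ranked 962nd of 5335 by this measure. Among the 5 most like *Meox2* were *Nbl1* (0.53 and 0.45), *Col3a1* (0.44 and 0.56), *Adgrl2*, an adhesion receptor (0.43 and 0.47), and *Igfbp3*, a binding protein of insulin-like growth factors (0.42 and 0.44). No gene was in both sets of 5. At the other end, *Sox5* had the last rank for *Meox2* among 5335 genes, and *Col9a1* the rank before it. *Sox9* held rank 5328 for *Meox2* (−0.40 in NXT0142 and −0.41 in NXT0143). For *Shox2* it held rank 5326 (−0.41 and −0.15), a rank set by the lower value, that of NXT0142. A low rank of *Sox9* was thus not particular to *Meox2*, but only for *Meox2* was its coefficient alike in both runs.

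*Meox1* was detected in 12 zeugopod cells (9.76%, 5.14 to 16.4%), 4 of NXT0142 (6.90%) and 8 of NXT0143 (12.3%), and in every other zeugopod cell it had 0 reads. Its CPM in these cells ranged from 2.77 over a median of 44.8 to 394.0, and its 10 highest cells held 99.6% of its summed CPM. The highest cell, from NXT0142, had 1998 reads of *Meox1*, 727 of *Meox2* and 0 of *Shox2*. The next, from NXT0143, had 935 reads of *Meox1*, 3496 of *Meox2* and 856 of *Shox2*. *Meox1* thus remained below 400 CPM, whereas 18 cells had 1000 CPM or more of *Meox2* and 21 of *Shox2*.

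Of the 12 cells, 10 also had *Meox2* and 8 also had *Shox2*. *Meox1* was detected in 10 of 67 cells with *Meox2* (14.9%, 7.40 to 25.7%) and 2 of 56 without it (3.57%, 0.435 to 12.3%), and the intervals overlapped. The exceptions were a cell with 246 reads of *Meox1* and 0 of *Meox2*, and a cell with 9 reads of *Meox1* and 4 of *Meox2*. For *Shox2* the shares were 8 of 73 cells with it and 4 of 50 without it. Of the 27 cells with neither *Shox2* nor *Meox2*, 0 had *Meox1*, a limit of 11.1% by the count of 3 cells. Among chondrogenic cells 2 of 38 had it, at 8 and 9 reads, against 10 of 85 other cells (11.8%, 5.79 to 20.6%). Muscle genes did not mark these cells, since *Myod1*, *Myog*, *Myf5*, *Pax3* and *Lbx1* were detected in 0 of the 12 and *Pax7* in 2, beside 15 of all zeugopod cells.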

How the data were processed

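The authors mapped reads of 75 bases uniquely with bowtie2 to mm10 (GRCm38) and deposited raw counts per gene for 225 cells. They also deposited a normalized signal for 199 cells (123 of 129 zeugopod and 76 of 96 autopod cells), made from counts with spike-in size factors, which were mean-centred per batch, and corrected for the length of each gene. A gene without reads sits there at a floor, the inverse of its length in kb (0.316 for *Shox2*, 0.423 for *Meox2*), and 99.96% of values times length were whole within 0.001. Because the quotient was truncated, 3 retained cells with *Shox2* reads and 8 with *Meox2* reads also sat at the floor, so detection was taken from reads. Spike-in rows were not used.

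Detection, CPM, classes, exact (Clopper-Pearson) intervals, differences of mean log2(signal + 1) and Spearman coefficients were computed with Python 3 tools (numpy, pandas, scipy). The interval of a difference of shares combined those of both shares, and the interval of a ratio held the expected number fixed. Cells were thinned to 500000 reads with seed 42, which kept 119 zeugopod and 72 autopod cells. No doublet caller was run. Computations across genes were tested on simulated data. Named genes were the members, up to 4 genes per list with large differences, and the 5 best ranked per direction or per member; genes named outside these, such as *Osr2*, *Col11a1* and the muscle genes, were picked after their values were seen, and a gene that the rule names is not reported here. The members and lists were chosen with earlier results of these data known.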

Additional observations from a re-analysis of the deposited data

Results flagged for a closer look

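The difference between cells with and without *Shox2* in the share that held *Meox2* had opposite signs in the 2 zeugopod runs, at −3.94 percentage points in NXT0142 and 31.9 points in NXT0143. Run NXT0142 was the deeper of the 2, and whether depth has a part in this was not tested. The difference between the runs itself was not tested, since cells are not replicates.

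Of the 6 zeugopod cells left out by the quality filter, 1 cell of NXT0143 had 20 reads of *Shox2* and 3 of *Meox2* among 143483 reads on genes, above the detection level and outside the comparisons made here. Of the 20 autopod cells left out, none had a read of the 3 genes.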

How the results depend on the processing

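No paired analysis was possible because the results come from no test and the shared numbers in the labels name cells. Of 162 alternatives, 132 stayed within the interval or tolerance of the reported value, 28 moved and 2 reversed; settings without the tenth of cells with most genes detected, outside the chondrogenic call and with other marker rules were chosen after seeing the data. In NXT0142 alone, the ratio of observed to expected cells with both genes was 0.966 and the difference in the share with *Meox2* −3.94 points. The correlation of *Shox2* and *Meox2* was 0.124 in NXT0142 and 0.472 in NXT0143. The zeugopod share with *Shox2* was 49.6% at 10 CPM or more. That with *Meox2* was 69.1% at 1 read, 43.9% at a normalized value of 5, 41.5% at 10 CPM and 41.2% after thinning. The share with both was 50.4% at 1 read, 25.2% at 10 CPM, 26.9% after thinning and 48.2% outside the chondrogenic call. The autopod share with *Meox2* was 23.7% at 1 read and 0 in NXT0143. With a pseudocount of 10, the difference between the tissues was 2.72 for *Shox2* and 2.45 for *Meox2*. The difference of chondrogenic from other cells in the share with *Meox2* lay between −60.4 and −31.5 points over all alternatives, and for *Shox2* between −31.8 and −2.45.

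Shares of genes called depended most on the pseudocount. For *Shox2*-only above *Meox2*-only cells, 6.56% of genes became 10.1% with a pseudocount of 0.1, 1.97% with 10, 4.17% with no filter on low values and 3.04% when a difference of 1 was asked of each run. For those below, 11.7% became 4.31% with 10, 6.88% with no filter and 4.48% in each run. For cells with both above cells with neither, 26.4% became 11.3% with 10, 14.8% with no filter and 14.9% in each run. For those below, 3.0% became 0.975% with 10, 5.79% on CPM and 1.35% in each run. Of the 5 genes most like *Shox2*, 4 were again among the first 5 given genes detected and 4 on CPM, and of those most like *Meox2*, 3 and 3. *Meox1* has no value under the normalized criterion. Depth limits the shares of weak cells, and the number of cells limits their intervals.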

Other observations

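Further cartilage and muscle-lineage genes were read beside the members. *Hapln1*, which encodes a link protein of the cartilage matrix, was detected in 6 zeugopod cells, 4 of them with *Shox2* and 0 with *Meox2*, and *Col9a3*, the remaining chain of collagen IX, in 19.2% of cells with *Shox2* and 5.97% of cells with *Meox2*. *Mef2c*, a transcription factor of muscle and of maturing cartilage, was detected in 8 of 27 cells with neither gene and 5 of 29 *Shox2*-only cells, but in 1 of 23 *Meox2*-only cells and 1 of 44 cells with both. These genes were named after their values were seen, and the counts are small.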
